A study of Arabidopsis thaliana with 16 samples.

Results

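Dry seeds of the brm-3 mutant were compared with dry seeds of Col-0, the wild-type accession of Arabidopsis thaliana, by 3′RNA-Seq, in which reads are taken from the 3′ end of each messenger RNA. The comparison rested on the 8 libraries that carry these 2 genotypes in their labels, 4 of brm-3 and 4 of Col-0, out of 16 in the whole series. The other 8 libraries were 4 of dog1-4 and 4 of the double mutant brm-3dog1-4, and they entered the same fit. The line brm-3 carries a T-DNA insertion (SALK_088462) in BRM and makes a protein without the bromodomain, and dog1-4 is an insertion line of DOG1 (SM_3_20886). Plants were grown in a greenhouse in long days, and the seeds were kept in paper bags at room temperature. Each mutant allele was thus a lone insertion line, and nothing in the labels says that the libraries of a genotype came from separate plants, so the p-values measure the spread between these libraries, which may be technical.

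BRM is an ATPase of the SWI/SNF chromatin remodeling complexes, which use ATP to move or evict nucleosomes and so change the access of other proteins to DNA. It acts as a subunit of a larger assembly with SWI3, SWP73, actin-related and bromodomain proteins, and SYD is a related ATPase. A dry seed makes few transcripts of its own and stores those laid down while it matured, among them transcripts of storage proteins, oil body proteins, late embryogenesis abundant (LEA) proteins and small heat shock proteins. DOG1 is a main regulator of the depth of seed dormancy, so the set of mutants allowed the effect of brm-3 to be measured with and without it.

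Levels are given in CPM, the counts of a gene scaled to a common library size with TMM factors, the scaling that the fold changes use. A gene was said to rise or fall when its adjusted p in edgeR's quasi-likelihood test was under 0.05, and to be increased or decreased when its log2 fold change also passed 1 in size. Errors after a log2 fold change are standard errors (SE), with 4 libraries per genotype.

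The depth of the libraries overlapped between the genotypes. Col-0 libraries held between 1467125 and 2273515 counts and brm-3 libraries between 1627347 and 2031600, and an exact two-sided permutation test gave p = 0.657. Counts of mitochondrial genes stood apart. They made up between 0.260% and 0.315% of a Col-0 library and between 0.541% and 0.815% of a brm-3 library, with an exact permutation p of 0.0286, the smallest that 4 against 4 libraries allow, and 0.171 after adjustment over the 6 library measures compared. Every pair of replicates of a genotype differed by more than counting noise, so each library was kept as a sample of its own. The genes that define the mature embryo were high in all 8 libraries. All 8 embryo markers were tested and 1 of them, GEA6 (EM6), fell, where 5.02% of all tested genes fell. Of the 6 endosperm markers only EPR1 was tested, and 0 passed, with 0 at an unadjusted p under 0.05 and 0 in DESeq2. FWA had 0 counts in all 8 libraries, and 3 of the 6, FWA included, had at most 3 counts in each. Of the 11 seed coat markers 3 were tested, and ARA12 (SBT1.7), a subtilase of seed coat mucilage, rose by 0.43 ± 0.11 (adjusted p = 0.00572). Of all tested genes 5.22% rose. In whole seeds, fewer cells of a type and less RNA per cell cannot be told apart.

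The counted level of the BRM transcript was lower in brm-3. It stood at 33.3, 28.5, 19.3 and 30.9 CPM in the Col-0 libraries and at 18.4, 9.10, 8.96 and 10.6 CPM in the brm-3 libraries. The groups did not overlap, and the highest brm-3 library lay close to the lowest Col-0 library. This was a log2 fold change of -1.29 ± 0.23 (adjusted p = 3.38e-05). Reads were taken from the 3′ end, and where they lie relative to the insertion is not given in the sources used here. This level is therefore no measure of the protein, nor of transcript that stops before the 3′ end.

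Of 19 genes for SWI/SNF subunits and partners, 18 were tested, and 2 of them changed: BRM fell and BRD2 rose. These shares are near those of all tested genes, of which 5.02% fell and 5.22% rose. BRD2, which encodes a bromodomain protein of the BRM-containing complexes, stood at 4.04, 4.88, 2.41 and 3.86 CPM in Col-0 and at 19.8, 10.9, 14.3 and 14.1 CPM in brm-3. All brm-3 libraries were above all Col-0 libraries, with a log2 fold change of 1.92 ± 0.32 (adjusted p = 7.79e-06). The related bromodomain genes BRD1 and BRD13 had log2 fold changes of 0.33 (adjusted p = 0.537) and 0.47 (adjusted p = 0.344), and neither passed. The ATPase gene SYD had 26.9 CPM in Col-0 and 35.1 CPM in brm-3, and its log2 fold change of 0.36 ± 0.17 did not pass (adjusted p = 0.184). The core scaffold genes SWI3A, SWI3B, SWI3C and SWI3D lay between -0.07 and 0.46 on the log2 scale and none of them passed, and the lowest adjusted p among the 16 subunit genes other than BRM and BRD2 was 0.164, for SWP73A.

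Of the 10 annotated genes next to BRM, 5 on either side, 5 were tested and 1 passed, where 5.22% of all tested genes rose and 5.02% fell. ATI1, which encodes an ATG8-interacting protein, rose by 0.36 ± 0.12 (adjusted p = 0.0322). This call was lost in 6 of the 8 fits with 1 library of these genotypes left out (all but those without Col-0 replicate 2 or brm-3 replicate 2), where the adjusted p reached 0.140 without Col-0 replicate 4. DOG1 stood at 102, 101, 117 and 80.4 CPM in Col-0 and at 98.3, 125, 92.6 and 101 CPM in brm-3. These ranges overlapped across most of their length, and the difference of 0.06 ± 0.12 did not pass (adjusted p = 0.835).

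Across the genome, 212 of 10251 tested genes were increased (2.07%) and 99 were decreased (0.966%), and without the fold limit 535 rose (5.22%) and 515 fell (5.02%). The increased genes were mostly at low levels in Col-0. Their median went from 4.08 CPM in Col-0 to 12.4 CPM in brm-3, and 174 of the 212 had under 10 CPM in Col-0, against 3184 of all 10251 tested genes. The decreased genes started higher, at a median of 15.5 CPM, and came down to 6.36 CPM, with 25 of 99 under 10 CPM in Col-0. The median log2 fold change was 1.5 among the increased genes and -1.22 among the decreased genes, values that the fold limit itself helps to set. All 4 brm-3 libraries were above all 4 Col-0 libraries for 178 of the increased genes and below them for 90 of the decreased genes. Among all tested genes, 7.17% were separated upward and 7.15% downward.

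**Figure D1:**
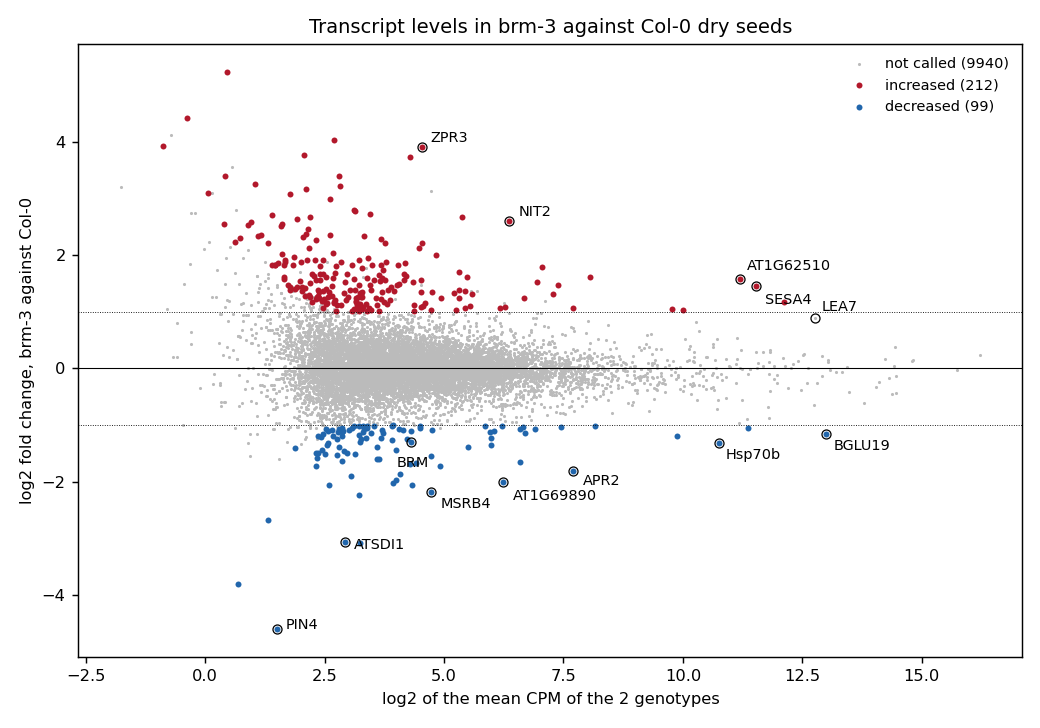
Log2 fold change of brm-3 against Col-0 (vertical axis) against the log2 of the mean CPM of the 2 genotypes (horizontal axis), with each of the 10251 tested genes as a point, the 212 increased genes in red and the 99 decreased genes in blue, and dotted lines at a log2 fold change of 1 in each direction. Most increased genes lie at the low end of the level axis, while BGLU19 and AT1G62510 pass the limit at high levels and LEA7, at a log2 fold change of 0.89, stays inside it.

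Among genes with 20 or more counts on average and genotypes that did not overlap, ZPR3 had the largest increase. ZPR3 encodes a LITTLE ZIPPER protein, a small leucine zipper protein that binds class III HD-ZIP transcription factors and keeps them from DNA. It stood at 3.03, 3.26, 0.804 and 3.86 CPM in Col-0 and at 45.1, 50.4, 36.4 and 42.3 CPM in brm-3. Every brm-3 library was far above every Col-0 library, and the log2 fold change was 3.91 ± 0.27 (adjusted p = 1.36e-16). The other members of the family did not share this level. ZPR1 and ZPR4 had at most 2 counts in any of the 8 libraries, and ZPR2 had 0 counts in all of them. The 250 bases before the annotated start of ZPR3, at chr3:19559324-19559573 on the minus strand of TAIR10.1, are shown because this gene had the largest increase in fold under that rule. Capitals mark the only match to GAANNTTC, the inner part of a heat shock element, which begins 34 bases before the start.
ZPR3: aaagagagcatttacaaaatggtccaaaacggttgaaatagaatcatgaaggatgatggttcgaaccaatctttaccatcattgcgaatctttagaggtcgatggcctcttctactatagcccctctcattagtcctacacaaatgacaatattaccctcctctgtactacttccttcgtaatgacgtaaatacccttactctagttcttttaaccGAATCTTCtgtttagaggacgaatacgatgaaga

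Some of the most increased genes act in nitrogen and small-molecule metabolism. NIT2, a nitrilase that can turn indole-3-acetonitrile into auxin, had 18.7, 30.1, 29.8 and 17.4 CPM in Col-0 and 121, 141, 171 and 132 CPM in brm-3. The lowest brm-3 library was several times the highest Col-0 library, and the log2 fold change was 2.60 ± 0.21 (adjusted p = 1.38e-08). GSTF6, a glutathione transferase, was more variable, with 7.07, 25.2, 5.63 and 9.64 CPM in Col-0 and 51.2, 86.1, 43.6 and 105 CPM in brm-3. Its log2 fold change of 2.67 ± 0.65 passed with all libraries (adjusted p = 0.0189) and was lost without Col-0 replicate 1, 3 or 4 or brm-3 replicate 4, where the adjusted p reached 0.0687 (without Col-0 replicate 1). Reads of near-identical glutathione transferases may be shared between genes, and how such reads were counted is not given in the sources used here.

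Transport genes were also among the most increased. NRT1.5, which loads nitrate into the xylem, went from 4.48 to 21.3 CPM (2.28 ± 0.27). MSS1, a sugar transporter also known as STP13, went from 11.6 to 45.2 CPM (2.01 ± 0.20). AT1G77100, annotated as a peroxidase family gene, went from 7.96 to 36.5 CPM (2.13 ± 0.24), and CSLG2, a cellulose synthase-like gene, from 4.49 to 22.6 CPM (2.22 ± 0.32). PCAP1, a plasma membrane-associated cation-binding protein, rose by 1.88 ± 0.26. The remaining genes of this group, AT2G13547, AT1G64795, AT2G12400 and AT5G06845, had log2 fold changes between 1.83 and 3.74, and all 4 of them passed with any library of these genotypes left out.

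The decreases named next are the largest in fold under the same rule of 20 or more counts on average and no overlap. MSRB4, a methionine sulfoxide reductase that repairs oxidized methionine, had 39.9, 43.1, 41.8 and 49.5 CPM in Col-0 and 8.88, 8.49, 9.56 and 11.2 CPM in brm-3. Both groups were tight and far apart, and the log2 fold change was -2.18 ± 0.21 (adjusted p = 2.37e-12). It was the only one of 9 tested methionine sulfoxide reductase genes that passed, where 5.02% of all tested genes fell and 5.22% rose. ERF-1 (AT4G17500), an ethylene response factor, went from 24.5 to 6.10 CPM (-2.03 ± 0.25), and AT2G28790, annotated as a thaumatin family gene, from 32.6 to 7.76 CPM (-2.06 ± 0.22). AT1G69890, annotated as an actin cross-linking protein, had the smallest adjusted p of these decreases, 6.88e-18, and a log2 fold change of -2.00 ± 0.13. It went from 115, 119, 136 and 116 CPM in Col-0 to 38.2, 27.9, 29.9 and 25.3 CPM in brm-3, and every brm-3 library was far below every Col-0 library. PMAT2, a malonyltransferase that acts on phenolic glycosides, fell by 1.87 ± 0.25. TPS1, which makes trehalose 6-phosphate, the sugar signal that is needed for embryo maturation, went from 36.8, 14.6, 33.8 and 33.4 CPM to 10.9, 7.28, 8.96 and 10.6 CPM. Col-0 replicate 2 was low for this gene but still above all brm-3 libraries. The log2 fold change was -1.69 ± 0.24 (adjusted p = 4.02e-07).

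**Figure D2:**
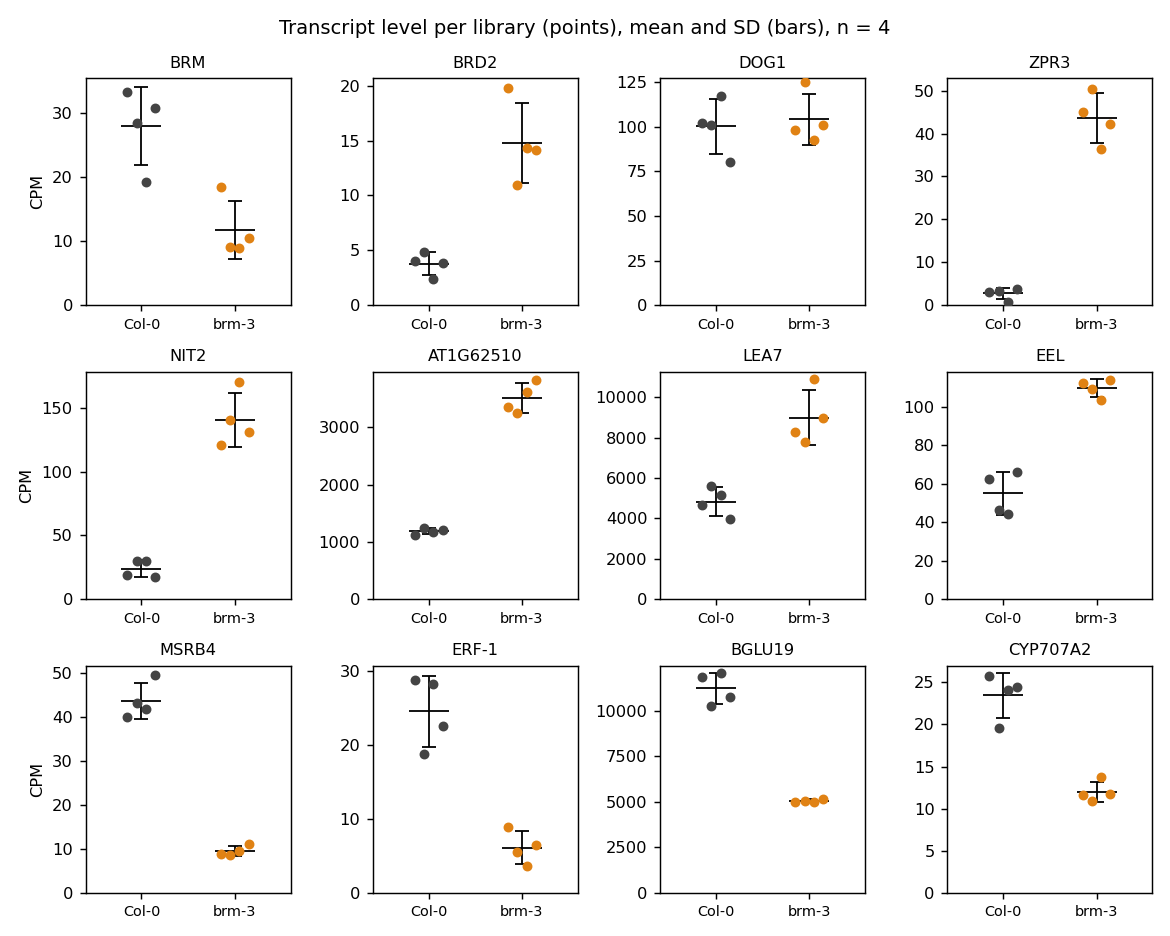
Level in CPM (vertical axes, each from 0) of 12 genes in the 4 Col-0 and 4 brm-3 libraries, with each library as a point and the mean and SD as bars. DOG1 overlaps between the genotypes, while the libraries of the other 11 genes are fully separated. For genes named as largest changes, separation was part of the rule that picked them.

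Genes of sulfate assimilation were lower in brm-3 with 1 exception. Plants activate sulfate with ATP sulfurylases (APS), reduce it with APS reductases (APR) and sulfite reductase (SIR), and build cysteine from the sulfide. Of 8 genes of these families, 6 were tested, 5 fell and 1 rose, where 5.02% of all tested genes fell, and the median log2 fold change of the 6 was -0.95 against 0.00 over all tested genes. The summed level of the list lay between 828 and 943 CPM in Col-0 and between 405 and 460 CPM in brm-3, so the groups did not overlap. APR2, the main APS reductase, had the largest fall of the 5. It had 281, 378, 318 and 325 CPM in Col-0 and 92.9, 77.0, 86.6 and 114 CPM in brm-3. No brm-3 library came near the lowest Col-0 library. That is a log2 fold change of -1.81 ± 0.13 (adjusted p = 1.43e-13).

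The other steps moved less. APS1, the main ATP sulfurylase, went from 203 to 119 CPM (-0.76 ± 0.10, adjusted p = 4.94e-08), and SIR, the lone sulfite reductase, from 292 to 183 CPM (-0.67 ± 0.10, adjusted p = 1.59e-06). APR3 fell by 1.25 ± 0.22 and APR1 by 1.14 ± 0.24. APS2 was the exception, with a log2 fold change of 1.36 ± 0.47 (adjusted p = 0.0492) at a level of 2.35 CPM in Col-0 and 5.82 CPM in brm-3. This call was lost in 6 of the 8 fits with 1 library left out (all but those without Col-0 replicate 3 or brm-3 replicate 4), with an adjusted p of up to 0.223 without Col-0 replicate 1.

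Further genes tied to sulfur were chosen after their values were seen. ATSDI1 (SDI1), a gene that responds to sulfur deficiency and lowers glucosinolate synthesis, had 23, 18, 20 and 19 counts in Col-0 and 2, 3, 3 and 2 counts in brm-3. All brm-3 libraries were at or under the floor of 3 counts, and set against that floor in each library the gene was at least 7.35-fold lower. SULTR1;2, a high-affinity sulfate transporter of the root, had 16.7, 17.1, 24.1 and 26.4 CPM in Col-0 and 15.0, 5.46, 7.17 and 7.64 CPM in brm-3. The brm-3 replicate 1 lay just under the lowest Col-0 library, well above the other 3. The log2 fold change was -1.26 ± 0.24 (adjusted p = 0.000126). MGL, methionine gamma-lyase, which breaks down methionine, went from 142 to 63.9 CPM (-1.14 ± 0.12), and SHM7 (MSA1), a hydroxymethyltransferase tied to S-adenosylmethionine, from 32.3 to 10.1 CPM (-1.67 ± 0.22). In the 250 bases before the start, the sulfur-response core GAGAC, searched on both strands, was found for 0 of the 5 sulfate genes that fell and for 24.9% of 10040 tested genes with a promoter sequence.

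Heat shock protein genes fell more often than they rose. Of 75 genes named as heat shock proteins, 38 were tested, 9 fell and 1 rose, beside 5.02% and 5.22% of all tested genes, and the median log2 fold change was -0.25. Their summed level was between 15494 and 18264 CPM in Col-0 and between 10476 and 12936 CPM in brm-3, without overlap. Hsp70b, a chaperone that is strongly induced by heat, had 2361, 2733, 2381 and 2360 CPM in Col-0 and 886, 882, 905 and 1292 CPM in brm-3. One library of each group was high, Col-0 replicate 2 and brm-3 replicate 4, and the groups stayed far apart. The log2 fold change was -1.31 ± 0.11 (adjusted p = 6.71e-14). HSP17.4, a small heat shock protein that is also made in maturing seeds, went from 4172, 4531, 4236 and 4475 CPM to 2497, 2510, 2835 and 3081 CPM. That is a log2 fold change of -0.67 ± 0.10 (adjusted p = 1.86e-06) in an abundant transcript. HSP101, the disaggregase that gives seeds and seedlings heat tolerance, went from 599 to 383 CPM (-0.65 ± 0.10), and AT1G52560, a small heat shock protein, from 234 to 114 CPM (-1.03 ± 0.13). HSP17.6II was among the 10 largest decreases under the rule of 20 or more counts and no overlap, with 14.6, 35.0, 15.3 and 36.6 CPM in Col-0 and 7.51, 7.89, 4.18 and 5.88 CPM in brm-3. Col-0 was uneven for this gene, with replicates 2 and 4 high, and the log2 fold change was -1.96 ± 0.33 (adjusted p = 8.16e-05). The gene that rose, AT3G09440, annotated as a constitutive type of Hsp70, went from 23.7 to 55.7 CPM (1.25 ± 0.25, adjusted p = 0.00217), and it was named after its value was seen. Heat shock proteins form gene families with similar sequences, and reads may be split between copies.

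**Figure D3:**
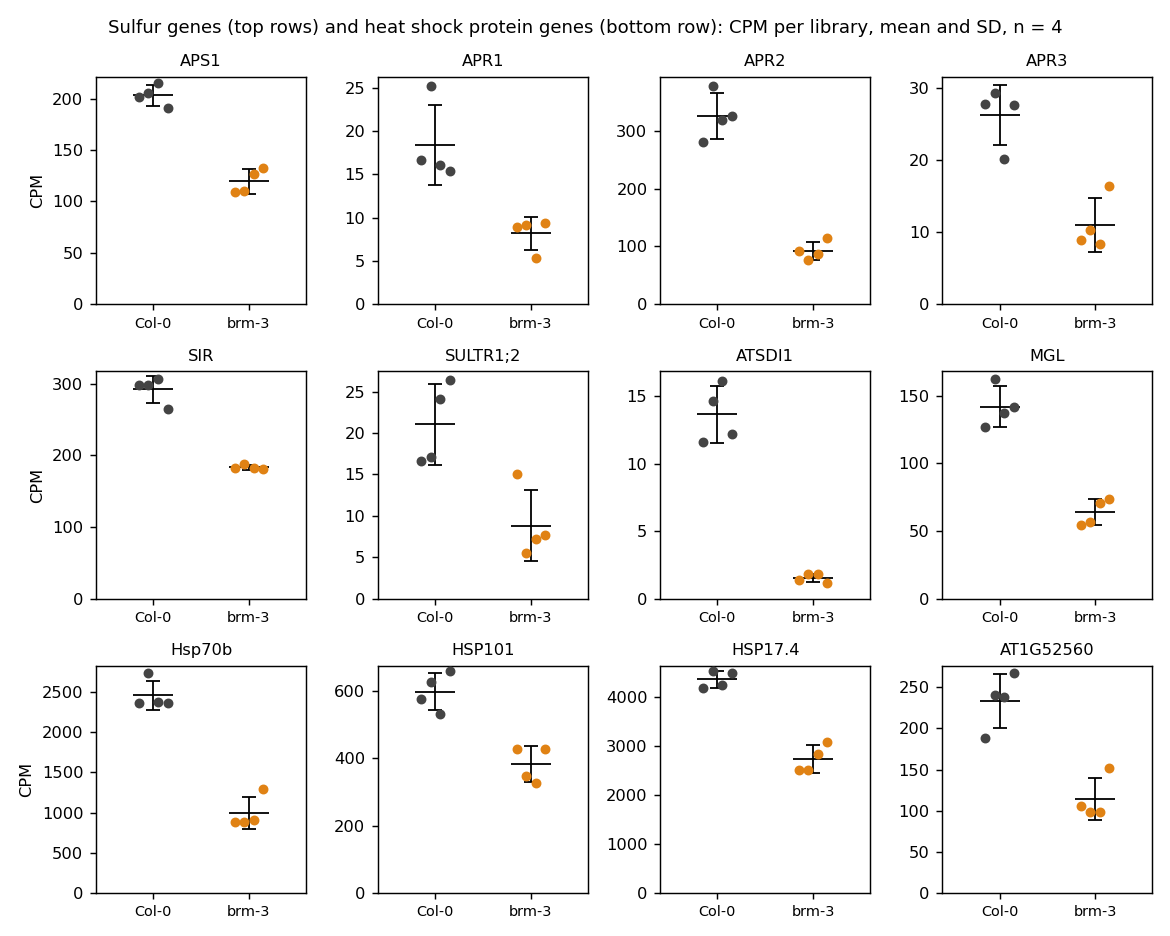
Level in CPM (vertical axes, each from 0) of 8 sulfur genes (upper rows) and 4 heat shock protein genes (bottom row) in the 4 Col-0 and 4 brm-3 libraries, with each library as a point and the mean and SD as bars. In all 12 panels every brm-3 library is below every Col-0 library, with the narrowest gap for SULTR1;2 (15.0 against 16.7 CPM). These genes were picked by their values in the same libraries, so the separation is partly set by that choice.

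HSFA9, the heat shock factor that acts in maturing seeds, fell as well. It had 395, 372, 339 and 371 CPM in Col-0 and 283, 271, 233 and 289 CPM in brm-3, so the highest brm-3 library was below the lowest Col-0 library. The log2 fold change was -0.46 ± 0.11 (adjusted p = 0.00193). The heat shock element core GAANNTTC, searched in the 250 bases before the start, was found for 2 of the 9 heat shock protein genes that fell, 5 of the 38 tested ones (13.2%) and 9% of all 10040 promoters. The 2 promoters are shown, from TAIR10.1, with each match in capitals. That of HSP17.4 is at chr3:16984868-16985117 on the minus strand, with matches beginning 99 and 18 bases before the start, and that of AT1G52560 is at chr1:19575867-19576116 on the minus strand, with 1 match beginning 48 bases before it.
HSP17.4: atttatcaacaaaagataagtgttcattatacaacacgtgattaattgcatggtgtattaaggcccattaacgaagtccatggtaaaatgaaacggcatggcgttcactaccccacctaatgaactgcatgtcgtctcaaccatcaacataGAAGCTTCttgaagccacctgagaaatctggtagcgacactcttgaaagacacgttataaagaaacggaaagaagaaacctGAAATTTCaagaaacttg
AT1G52560: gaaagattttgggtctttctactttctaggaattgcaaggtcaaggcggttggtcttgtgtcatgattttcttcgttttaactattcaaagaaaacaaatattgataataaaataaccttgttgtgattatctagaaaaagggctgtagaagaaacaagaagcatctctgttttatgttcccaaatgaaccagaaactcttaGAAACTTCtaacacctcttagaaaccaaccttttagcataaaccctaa

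LEA protein genes moved the other way. LEA proteins protect membranes and enzymes in the dry state. Of 55 genes, 31 were tested, 7 rose and 1 fell, beside 5.22% and 5.02% of all tested genes, and the median log2 fold change was 0.15. LEA7 (AT1G52690), 1 of the most abundant, had 4645, 5596, 5138 and 3959 CPM in Col-0 and 8270, 7793, 10897 and 8961 CPM in brm-3. The groups did not overlap, and the log2 fold change was 0.89 ± 0.13 (adjusted p = 5.80e-07). AT3G02480 went from 573, 658, 639 and 397 CPM to 1131, 1130, 1448 and 973 CPM. The log2 fold change was 1.05 ± 0.16 (adjusted p = 0.000135), and the lowest library of each genotype was its replicate 4. AT1G54410, a dehydrin, had at most 3 counts in each Col-0 library and between 14 and 29 in brm-3, and was at least 6.19-fold higher against the floor of 3 counts per library. AT2G46140 rose by 0.75 ± 0.14, from 35.0 to 58.8 CPM. The LEA gene that fell, AT1G72100, went from 1810 to 1385 CPM (-0.39 ± 0.10, adjusted p = 0.00411), and it was named after its value was seen.

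Shares of promoters with a motif are given for the called groups and for all promoters, and their differences were not tested. ACGTG, the core of the ABA-responsive element, was found on either strand for 63 of 195 increased genes with a promoter sequence (32.3%), 24.2% of the decreased genes and 24.6% of all 10040. TTGAC, the W-box core that WRKY factors bind, was found for 47.2% of the increased genes, 52.5% of the decreased genes and 44.1% of all. GCCGCC, the GCC box of ethylene response factors, was found for 1.54%, 2.02% and 2.18%. The promoter of LEA7 at chr1:19619474-19619723 on the plus strand holds 5 matches to ACGTG, shown in capitals, 2 of which overlap on opposite strands in CACGTG.
LEA7: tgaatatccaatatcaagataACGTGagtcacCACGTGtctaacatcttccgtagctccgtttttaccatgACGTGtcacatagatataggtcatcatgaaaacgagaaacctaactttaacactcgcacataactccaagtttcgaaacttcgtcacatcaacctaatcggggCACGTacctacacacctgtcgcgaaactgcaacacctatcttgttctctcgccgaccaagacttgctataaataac

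Storage protein genes split in both directions. All 13 were tested, 2 rose and 3 fell, where 5.22% and 5.02% of all tested genes did. The count that fell was 1 without Col-0 replicate 2 or brm-3 replicate 1 or 2, and 2 in DESeq2. CRU2, a 12S cruciferin, had 9334, 7453, 9770 and 6765 CPM in Col-0 and 4632, 5218, 6049 and 5302 CPM in brm-3. No brm-3 library reached the lowest Col-0 library, and the log2 fold change was -0.65 ± 0.15 (adjusted p = 0.00352). SESA4, a 2S albumin, went the other way, from 2534, 1133, 1806 and 890 CPM to 3574, 4725, 5163 and 3964 CPM. Col-0 was uneven for SESA4, but all brm-3 libraries were above it (1.45 ± 0.28, adjusted p = 0.00433). The 2S albumins lie in a tandem array with similar sequences, so the share of reads given to each copy is uncertain. PAP85, a vicilin-like storage protein, went from 25844 to 19239 CPM (-0.43 ± 0.12, adjusted p = 0.0110). That call was lost without Col-0 replicate 2 or brm-3 replicate 1 or 2, with an adjusted p of up to 0.0653 (without Col-0 replicate 2). AT4G36700, a cupin, rose by 0.59 ± 0.10, from 487 to 736 CPM.

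Of 10 tested genes whose product is named an oleosin or caleosin, proteins that coat and anchor oil bodies, 1 rose and 2 fell, beside 5.22% and 5.02% of all tested genes. ATS1, annotated as peroxygenase 1, is not in that list and is given further on. The count that fell was 1 without Col-0 replicate 1, 2 or 3 or brm-3 replicate 1 or 2, and 0 rose without Col-0 replicate 4. AT3G18570, an oleosin family gene, went from 290, 309, 294 and 312 CPM to 160, 214, 215 and 219 CPM, with brm-3 replicate 1 the lowest (-0.57 ± 0.10, adjusted p = 1.45e-05). OLEO4 had 13016 CPM in Col-0 and 9760 CPM in brm-3 (-0.42 ± 0.12, adjusted p = 0.0179), and the call was lost without Col-0 replicate 1, 2 or 3 or brm-3 replicate 1 or 2, with an adjusted p of up to 0.0789 (without brm-3 replicate 2). GEA6, the EM6 protein of the dry embryo, went from 24658 to 17954 CPM (-0.46 ± 0.12, adjusted p = 0.00846), and without Col-0 replicate 2 its adjusted p was 0.0671. Genes that use the oil reserve did not move together. Malate synthase (MLS), of the glyoxylate cycle, fell from 2260 to 1565 CPM (-0.53 ± 0.10), and the list of 13 tested genes of oil synthesis and use held 3 that rose and 1 that fell. Of these, 1 rose without Col-0 replicate 4, and 2 fell without Col-0 replicate 3 or brm-3 replicate 3.

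High-level genes with large changes that lie outside these lists were named after their values were seen. BGLU19, a beta-glucosidase, had 11888, 10295, 12068 and 10791 CPM in Col-0 and 4984, 5067, 4998 and 5173 CPM in brm-3. The brm-3 libraries were close to each other and far below Col-0, with a log2 fold change of -1.16 ± 0.11 (adjusted p = 9.08e-12). ATS1, a caleosin-type peroxygenase of the seed, went from 1301 to 567 CPM (-1.20 ± 0.10, adjusted p = 1.65e-14). AT1G62510, a gene of the protease inhibitor and seed storage 2S albumin superfamily, had 1119, 1234, 1166 and 1215 CPM in Col-0 and 3357, 3246, 3628 and 3830 CPM in brm-3. Every brm-3 library was above every Col-0 library, with a log2 fold change of 1.57 ± 0.11 (adjusted p = 3.81e-17).

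Genes of glutathione and peroxide metabolism are set beside the 5.22% of all tested genes that rose and the 5.02% that fell. Of 26 tested glutathione transferase genes 5 rose and 1 fell, of 10 tested genes of glutathione synthesis, peroxidases and reductases 3 rose and 0 fell, and of 13 tested catalase, superoxide dismutase and ascorbate peroxidase genes 2 rose and 0 fell. The lone glutathione transferase that fell did so only with all libraries or without Col-0 replicate 1 or brm-3 replicate 4, and not in DESeq2, and of the last list 1 rose without Col-0 replicate 1. GR1, which regenerates reduced glutathione, had 33.3, 33.4, 25.7 and 36.0 CPM in Col-0 and 50.5, 48.5, 53.2 and 61.7 CPM in brm-3. The groups did not overlap (0.73 ± 0.14, adjusted p = 0.000131). GSTF8 went from 8.65 to 23.8 CPM (1.48 ± 0.24), GSTU19 from 279 to 392 CPM (0.49 ± 0.10) and GSTF2 from 338 to 434 CPM (0.36 ± 0.09). GPX6, a glutathione peroxidase, went from 1349 to 1818 CPM (0.43 ± 0.10, adjusted p = 0.00283).

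Of 13 tested dormancy regulators, 4 fell and 0 rose, where 5.02% and 5.22% of all tested genes did. The count that fell was 3 without Col-0 replicate 1, 3 or 4 or brm-3 replicate 1, and 2 without brm-3 replicate 2. For 1 of the 4 genes the call was lost in 7 of the 8 fits with 1 library left out. AT4G18650 (DOGL4), a relative of DOG1, had 63.6, 49.6, 59.5 and 57.2 CPM in Col-0 and 29.4, 29.7, 30.5 and 31.7 CPM in brm-3. All brm-3 libraries lay within a few CPM of each other and below Col-0, with a log2 fold change of -0.93 ± 0.15 (adjusted p = 4.65e-06). SOM, a zinc finger protein that holds back germination in the dark, went from 1168 to 890 CPM (-0.39 ± 0.09, adjusted p = 0.00224). PP2CA, a phosphatase that dampens the abscisic acid (ABA) signal and binds DOG1, went from 126 to 95.8 CPM (-0.39 ± 0.11, adjusted p = 0.0121), with an adjusted p of 0.0971 without brm-3 replicate 2.

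For ABA synthesis and breakdown, 7 of 16 genes were tested and 2 fell, 1 on each side of the balance. All counts of hormone and maturation genes are read against 5.22% of all tested genes that rose and 5.02% that fell. CYP707A2, the main ABA 8′-hydroxylase of seeds, had 25.7, 19.5, 24.1 and 24.4 CPM in Col-0 and 11.6, 10.9, 13.7 and 11.8 CPM in brm-3. The separation was complete (-0.98 ± 0.22, adjusted p = 0.00131). ABA1, zeaxanthin epoxidase, which acts early in ABA synthesis, went from 230 to 179 CPM (-0.37 ± 0.10, adjusted p = 0.00671). Among 28 tested genes of ABA perception and signaling 2 rose and 3 fell, led by the receptor gene PYL12, from 36.2 to 17.2 CPM (-1.08 ± 0.20, adjusted p = 7.19e-05). These 5 calls depended on the libraries. The count that rose was 0 without Col-0 replicate 4 or brm-3 replicate 3, and leaving out Col-0 replicate 1 or 3 or brm-3 replicate 1 or 2 gave 1. The count that fell was 1 without Col-0 replicate 4 or brm-3 replicate 2 or 3, 2 without Col-0 replicate 1 or 3 and 4 without brm-3 replicate 4, and DESeq2 called 1 in each direction. Gibberellin genes had 1 that rose and 2 that fell of 14 tested, and 0 rose without Col-0 replicate 1, 2 or 3 or brm-3 replicate 3 or 4, or in DESeq2. RGL3, a DELLA repressor of gibberellin responses, had 27.3, 26.9, 24.9 and 28.9 CPM in Col-0 and 13.7, 15.8, 7.76 and 12.9 CPM in brm-3 (-1.11 ± 0.20, adjusted p = 5.26e-05). KAO2, a kaurenoic acid oxidase of gibberellin synthesis, went from 34.9 to 21.7 CPM (-0.70 ± 0.17, adjusted p = 0.00389). Of 7 tested regulators of seed maturation, 2 rose and 2 fell. Only 1 rose without Col-0 replicate 1 or 2 or brm-3 replicate 2, 3 or 4, only 1 fell without Col-0 replicate 1, 2 or 3 or brm-3 replicate 2, 3 or 4, and DESeq2 called 1 in each direction. EEL, a bZIP factor that acts on LEA gene promoters, had 62.6, 46.4, 44.2 and 66.2 CPM in Col-0 and 112, 109, 103 and 114 CPM in brm-3. The groups were far apart (0.97 ± 0.13, adjusted p = 6.34e-08).

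Among transcription factor families, AP2/ERF genes fell in 5 of 27 tested cases and rose in 1 (2 without Col-0 replicate 4), where 5.02% of all tested genes fell and 5.22% rose. ERF12, a repressor type, went from 143 to 84.9 CPM (-0.74 ± 0.12), and AT5G18450, a DREB-type gene, from 99.5 to 49.0 CPM (-1.02 ± 0.12). AT1G75490, also of the DREB type, had 1486, 1533, 1586 and 1358 CPM in Col-0 and 1006, 931, 1064 and 1027 CPM in brm-3, which is high for a transcription factor gene (-0.57 ± 0.11, adjusted p = 0.000246). Of 18 tested WRKY genes 4 rose and 3 fell. WRKY33, a regulator of camalexin synthesis and fungal defense, went from 6.56, 4.88, 4.83 and 7.07 CPM to 23.9, 17.6, 14.9 and 20 CPM (1.65 ± 0.29, adjusted p = 5.26e-05). WRKY25 had at most 3 counts in each Col-0 library and between 11 and 17 in brm-3, and was at least 4.01-fold higher against the floor. WRKY3 fell from 107 to 69.8 CPM (-0.61 ± 0.12).

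Auxin genes rose in 5 of 31 tested cases and fell in 1, beside 5.22% and 5.02% of all tested genes. BRU6, a GH3 gene that conjugates auxin to amino acids, had 75.7, 71.6, 101 and 82.9 CPM in Col-0 and 169, 143, 162 and 179 CPM in brm-3. All brm-3 libraries were above Col-0 (0.98 ± 0.12, adjusted p = 1.40e-08). WES1, another GH3 gene, did not exceed 3 counts in Col-0 and, set against that floor, was at least 3.49-fold higher in the mutant. Photosystem and Rubisco genes rose in 5 and fell in 2 of 23 tested cases, with 1 that fell without Col-0 replicate 1, 3 or 4 or brm-3 replicate 2 or 4. The sharpest fall was that of ELIP1, an early light-induced protein that shields chlorophyll, from 23.7, 12.2, 14.5 and 17.4 CPM to 2.05, 3.03, 1.79 and 1.18 CPM (-3.08 ± 0.36, adjusted p = 3.31e-09). PSBW and PSBR, small subunits of photosystem II, went from 5.55 to 20 CPM (1.82 ± 0.26) and from 20.3 to 39.1 CPM (0.97 ± 0.17).

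In other families the calls ran in both directions, and their counts are set against 5.22% of all tested genes that rose and 5.02% that fell. Of 50 tested cytochrome P450 genes 8 rose and 9 fell, with 5 that rose without Col-0 replicate 1, 5 that fell without brm-3 replicate 2, and 5 and 7 in DESeq2. CYP78A6 (EOD3), which sets seed size through the maternal tissue, had 15.6, 17.9, 13.7 and 14.8 CPM in Col-0 and 2.73, 5.46, 2.39 and 2.35 CPM in brm-3 (-2.23 ± 0.30, adjusted p = 9.21e-08). CYP71B37 went from 46.0 to 14 CPM (-1.72 ± 0.19), and CYP71A19 rose from 14.9 to 32.1 CPM (1.10 ± 0.19). Of 42 tested UDP-glycosyltransferase genes 4 rose (2 without Col-0 replicate 2) and 6 fell, among them AT2G16890, from 141 to 79.5 CPM (-0.83 ± 0.12). Cell wall genes rose in 3 and fell in 2 of 39 tested cases (1 fell without brm-3 replicate 2), shares near those of all genes. XTH11, a xyloglucan-modifying enzyme, had 70.7, 58.6, 61.9 and 48.9 CPM in Col-0 and 150, 130, 158 and 136 CPM in brm-3 (1.25 ± 0.13, adjusted p = 2.80e-10). Of 10 tested aquaporins 3 rose and 1 fell. The fall was called only with all libraries or without brm-3 replicate 4, and in DESeq2 2 rose and 0 fell. PIP1;4, a water channel of the plasma membrane, went from 8.82 to 27.2 CPM (1.56 ± 0.21). The plasma membrane channel PIP2A rose by 1.67 ± 0.43.

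Histone genes rose in 2 and fell in 2 of 27 tested cases. The count that rose was 0 without brm-3 replicate 2 and in DESeq2, and 1 without any other library except Col-0 replicate 2. In the same list, the linker histone gene HIS1-3, which responds to drought, fell from 79.8 to 50.7 CPM (-0.66 ± 0.14). Of 6 tested flowering genes 1 rose. FLC, a repressor of flowering, had 62.1, 70.8, 69.2 and 82.9 CPM in Col-0 and 121, 106, 99.7 and 92.9 CPM in brm-3, which is a narrow gap between the groups (0.56 ± 0.12, adjusted p = 0.000488). Of 9 tested phytochrome and PIF genes 1 rose and 1 fell (0 without Col-0 replicate 1). PHYA, the far-red light receptor, went from 22.8 to 36.4 CPM (0.68 ± 0.16, adjusted p = 0.00181). Of 250 tested ribosomal protein genes 7 rose and 4 fell, which is below the 5.22% and 5.02% of all tested genes. Between 1 (without brm-3 replicate 2) and 7 rose and between 0 (without brm-3 replicate 4) and 4 fell with 1 library left out, and DESeq2 called 0 and 1. For 3 lists no gene passed, namely the 8 tested Polycomb and opposing genes, 3 flavonoid genes and 4 glucosinolate genes. At an unadjusted p under 0.05 these lists held 1, 1 and 2 genes, and DESeq2 called 0 in each.

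**Figure D4:**
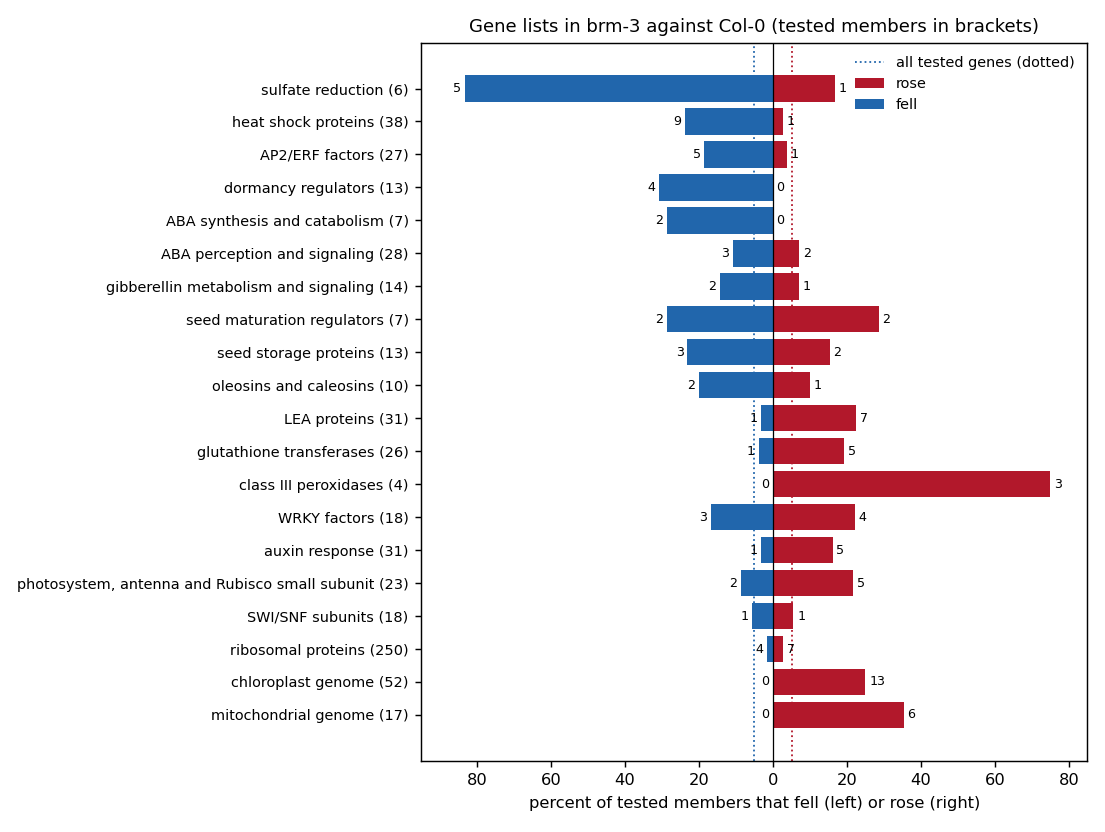
Percent of the tested members of 20 gene lists (vertical axis, tested members in brackets) that fell (left, blue) or rose (right, red) in brm-3 at an adjusted p under 0.05 in edgeR, with the number of genes at each bar and dotted lines at the 5.02% and 5.22% of all tested genes. The sulfate reduction and heat shock bars reach to the left, with 5 and 9 genes that fell, and the LEA and chloroplast genome bars to the right, with 7 and 13 genes that rose.

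The organelle genes that passed were all higher in brm-3. Of 52 tested chloroplast genes 13 rose and 0 fell, and of 17 tested mitochondrial genes 6 rose and 0 fell, beside 5.22% and 5.02% of all tested genes. The share of chloroplast counts overlapped between the genotypes, with 0.190% to 0.242% in Col-0 and 0.218% to 0.406% in brm-3 (exact permutation p = 0.0571, 0.171 after adjustment over the 6 library measures). The number of chloroplast genes that rose depended on the libraries. It was 7 without Col-0 replicate 1, 2 or 3, 4 without Col-0 replicate 4 or brm-3 replicate 1, 9 without brm-3 replicate 2 or 4 and 17 without brm-3 replicate 3, while that of mitochondrial genes stayed between 4 and 6. The mitochondrial locus ATMG00020 accounted for most of the mitochondrial counts. It had 2375, 3254, 2693 and 2547 CPM in Col-0 and 7960, 5036, 5926 and 5644 CPM in brm-3, with replicate 1 of brm-3 well above the others (1.18 ± 0.25, adjusted p = 0.00863). ATMG01390 went from 256 to 435 CPM (0.76 ± 0.13). Of the chloroplast loci, ATCG00360 had 53.9 CPM in brm-3 replicate 1 and between 27.5 and 30.9 CPM in the other 3, above all Col-0 libraries, which lay between 15.1 and 20.1 CPM (0.98 ± 0.23, adjusted p = 0.00501). These loci are not annotated in the reference used here. How the share of organelle reads relates to RNA quality or to the selection of polyadenylated RNA was not tested.

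Called genes that lie side by side or overlap were read with care. By the order of annotated genes on the chromosomes, 17 pairs of neighbors were both called, 12 of them in the same direction. AT1G62510 on the minus strand of chromosome 1 (TAIR10.1, positions 23136366 to 23137254) overlaps AT1G62515 on the plus strand (23136720 to 23137413) by 535 bases. AT1G62515 went from 2.17 to 8.87 CPM (1.91 ± 0.41), a small fraction of the counts of its partner, and because the use of strand in counting is not given in the sources used here, the 2 cannot be told apart. On chromosome 2, 2 neighbors on opposite strands went opposite ways. PIN4, an auxin efflux carrier, had 11, 4, 10 and 8 counts in Col-0 and 0, 0, 1 and 0 in brm-3, at least 2.96-fold lower against the floor. AT2G01422, whose annotated start lies beyond that of PIN4, had at most 1 count in each Col-0 library and 19, 7, 14 and 10 in brm-3, at least 3.79-fold higher.

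The same mutation was then measured where DOG1 was mutated too, with 4 libraries of brm-3dog1-4 against 4 of dog1-4. These share no library with the comparison above. In that background 384 genes were increased (3.75%) and 395 decreased (3.85%). Of the 212 genes increased in brm-3 against Col-0, 102 were increased there too (48.1%) and 5 were decreased, and of the 99 decreased genes 51 were decreased there too (51.5%) and 1 was increased. Their median log2 fold changes were 0.97 and -1.06 there. The difference between backgrounds was tested for each gene in the same fit. It passed for 71 of the 311 genes (22.8%) and for 8.79% of all tested genes. Because the 311 were chosen by their change in the wild-type background, a smaller change in the other background is partly set by that choice. Among the 50 increased genes with a difference, 48 had it toward a smaller rise, and among the 21 decreased genes 14 toward a smaller fall. Without scaling of the libraries the median log2 fold change of all tested genes was 0.37 in the dog1-4 background and 0.31 for the difference, against 0.03 and -0.01 with it.

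**Figure D5:**
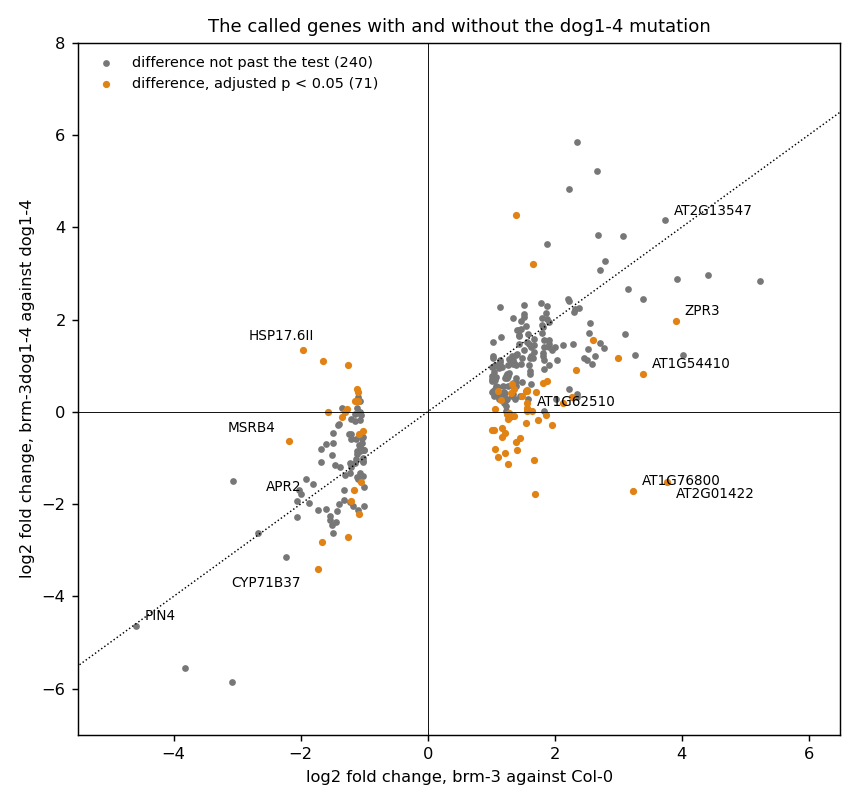
Log2 fold change of brm-3dog1-4 against dog1-4 (vertical axis) against that of brm-3 against Col-0 (horizontal axis) for the 311 called genes, with the 71 genes whose difference passed in orange, the others in gray and a dotted line where both are equal. AT1G76800 lies far below the line, at 3.23 and -1.71, and MSRB4 above it, at -2.18 and -0.64.

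For some genes the difference between backgrounds did not pass. BRM and BRD2 had log2 fold changes of -1.38 and 1.94 in the dog1-4 background. The difference was -0.08 for BRM (adjusted p = 0.922) and 0.02 for BRD2 (adjusted p = 0.988). NRT1.5 rose by 1.46 there, AT1G69890 fell by 1.78 and MGL fell by 1.11, and none of their differences passed. APR2 stood at 63.3, 78.7, 62.7 and 55.0 CPM in dog1-4 and at 29.0, 14.1, 28.0 and 18.8 CPM in brm-3dog1-4, a log2 fold change of -1.57 from a starting level well below that of Col-0. Hsp70b was similar, with 990 CPM in dog1-4 and 307 CPM in brm-3dog1-4 (-1.69). APS1 and SIR fell by 0.72 and 0.69. The lists as a whole did not all repeat in the dog1-4 background, where 12.1% of all tested genes rose and 15.4% fell. Of the 38 tested heat shock protein genes 4 rose and 7 fell there, with a median log2 fold change of -0.02. Of the 6 sulfate genes 0 rose and 3 fell. Of the 31 LEA genes 3 rose and 14 fell, with a median of -0.40.

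Other genes changed more in fold with brm-3 where DOG1 was intact. ZPR3 had 20.5, 18.1, 14.7 and 26.7 CPM in dog1-4 and 77.5, 61.0, 98.1 and 91.3 CPM in brm-3dog1-4. It thus rose in both backgrounds, by 1.98 in this one, and the difference was -1.93 (adjusted p = 0.000344). XTH11 had a log2 fold change of -0.04 in the dog1-4 background, with a difference of -1.29 (adjusted p = 1.23e-06), AT2G12400 one of -0.08 with a difference of -1.95 (adjusted p = 0.000472), and AT1G77100 one of 0.20 with a difference of -1.92 (adjusted p = 5.28e-05). MSRB4 fell by 0.64 there, and the difference was 1.54 (adjusted p = 0.000158).

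A few genes turned around. AT1G76800, which encodes a vacuolar iron transporter-like protein and was named after its values were seen, had 2.02, 0, 2.41 and 0.643 CPM in Col-0 and 8.88, 15.2, 13.1 and 14.7 CPM in brm-3. In the dog1-4 background it went down, from 11.8, 9.04, 13.0 and 24.4 CPM to 2.90, 5.14, 7.01 and 4.19 CPM. The log2 fold changes were 3.23 and -1.71, and their difference was -4.93 (adjusted p = 2.42e-09). BRU6 rose by 0.98 with DOG1 intact and fell by 0.50 without it, a difference of -1.49 (adjusted p = 3.14e-08). CYP71A19 rose by 1.10 and fell by 0.97 (difference -2.07, adjusted p = 3.37e-06), GPX6 rose by 0.43 and fell by 0.57 (difference -1.0, adjusted p = 1.97e-06), and PP2CA fell by 0.39 and rose by 0.36 (difference 0.75, adjusted p = 0.00107). AT2G01422 fell by 1.51 in the dog1-4 background (difference -5.28, adjusted p = 8.88e-06, a fitted value that rests on Col-0 libraries under the floor), while PIN4 next to it had 10, 5, 6 and 15 counts in dog1-4 and 1, 0, 0 and 1 in brm-3dog1-4.

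Another group changed more in fold where DOG1 was mutated. CYP71B37 went from 57.9 CPM in dog1-4 to 5.25 CPM in brm-3dog1-4 (-3.40, difference -1.68, adjusted p = 0.000152). OLEO4 went from 7830, 9216, 11702 and 8477 CPM to 2863, 2892, 4114 and 3150 CPM, a log2 fold change of -1.52 against -0.42 with DOG1 intact (difference -1.10, adjusted p = 7.60e-06). BGLU19 fell by 1.7 (difference -0.54, adjusted p = 0.0215) and ATS1 by 1.92 (difference -0.72, adjusted p = 0.000193). WRKY33 rose by 3.21, from 5.84 to 51.5 CPM (difference 1.56, adjusted p = 0.0209). Of the 250 ribosomal protein genes, 105 rose in the dog1-4 background, where 12.1% of all tested genes rose, against 7 in the wild-type background.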

How the data were processed

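Whole-seed RNA was measured in 16 libraries, 4 for each of the 4 genotypes, assigned by their labels. For each library the authors deposited raw read counts without any normalization, in a list of 37336 locus identifiers. The submitters' processing notes name STAR 2.7.8a, DESeq2 and TAIR10. The counting program, the use of strand and the use of molecular identifiers are not given in the sources used here. Antisense or near-identical genes therefore cannot be told apart. The floors cover counting error only, while the SEs and p-values also hold the spread between libraries.

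The counts were analysed with edgeR 4.0.16 (R 4.3.3), using TMM scaling, filterByExpr by genotype, robust quasi-likelihood tests and Benjamini-Hochberg adjustment. All 16 libraries entered 1 fit with a mean per genotype, and the difference between DOG1 backgrounds was a contrast of the 4 means. Of 21204 genes with a count, 10251 were tested, which took up 99.05% to 99.23% of each Col-0 or brm-3 library. CPM values are counts divided by the summed counts of the tested genes times the TMM factor of the library, the same scaling as for the fold changes, while shares of a library are of its raw total. SEs are the log2 fold change divided by the square root of the F value. A gene with at most 3 counts in every library of a genotype is given as a lower bound against 3 counts per library, and its fitted value, as plotted, depends on the prior count.

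Genes were named by rule, as the 12 largest increases and 10 largest decreases with 20 or more counts on average and no overlap, the SWI/SNF subunits, DOG1, the LITTLE ZIPPER genes, up to 4 genes per list, by smallest adjusted p among those that passed, and the 5 neighbors on each side of BRM. A few further genes, marked in the text, were chosen after their values were seen, as were ATSDI1, SULTR1;2, MGL, APR1, APS2, PIN4, AT2G01422 and AT1G62515. Some genes picked by the rule are not named in the text. The members and lists were chosen with earlier results of these data known. Names, roles by product and promoter sequences came from RefSeq's annotation of TAIR10.1, which held 37051 of the identifiers. Promoters were the 250 bases before the annotated start, searched on both strands. The alternatives were RLE and upper-quartile scaling, DESeq2 1.42.0, stricter and looser filters, other fold limits, only the libraries compared, a replicate block and each library left out in turn, and a fit without organelle genes was added after the data were seen.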

Additional observations from a re-analysis of the deposited data

Results flagged for a closer look

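A gap test on the lowest and the highest library was applied to groups of 4 libraries (Col-0 or brm-3). The groups were those of the 109 genes named and of the library measures. Groups with at most 3 counts in each library or with no range were skipped, so fewer than the 230 possible groups were tested. The test set 20 values apart from the other 3 of their group. Chance does so for about 1 in 20 groups. The libraries set apart were low in brm-3 for AT1G64795 (28.2 CPM), AT1G77100 (25.5 CPM), AT3G18570 (160 CPM), APR1 (5.38 CPM) and PIP2A (4.25 CPM). They were high in brm-3 for BRM (18.4 CPM), SWI3B (15.8 CPM), Hsp70b (1292 CPM), AT1G52560 (152 CPM), SIR (188 CPM), CYP78A6 (5.46 CPM), ATCG00360 (53.9 CPM) and the share of mitochondrial counts (0.815%). In Col-0 they were low for TPS1 (14.6 CPM), GSTF2 (297 CPM) and MLS (2049 CPM) and high for SWI3B (11.6 CPM), Hsp70b (2733 CPM), AT1G62515 (3.53 CPM) and APR1 (25.2 CPM).

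For 42 of the 106 named genes that were tested, the effect of brm-3 differed between the DOG1 backgrounds. The test was that of the difference in edgeR at an adjusted p under 0.05, which 8.79% of all tested genes passed. Many of the named genes were picked by their change in brm-3 against Col-0. A smaller change in the other background is partly set by that choice. Each value is the log2 fold change of brm-3dog1-4 against dog1-4 minus that of brm-3 against Col-0. Among genes that rose in brm-3, it was -1.93 for ZPR3, -1.04 for NIT2, -1.92 for AT1G77100, -1.21 for PCAP1, -1.95 for AT2G12400, -1.14 for GSTF8, -0.39 for GSTF2, -1.0 for GPX6, -1.20 for PSBW, -1.29 for XTH11, -1.95 for WRKY25, -1.49 for BRU6, -2.07 for CYP71A19 and -1.11 for PIP1;4. In seed storage and LEA genes that rose it was -2.02 for SESA4, -2.56 for AT1G54410, -1.44 for AT3G02480 and -1.09 for AT1G62510. It was -0.66 for ATMG01390 and -1.54 for ATMG00020, and -5.28 and -4.93 for AT2G01422 and AT1G76800. Of the named genes that rose and whose difference passed, WRKY33 had a positive one, 1.56.

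Among genes that fell in brm-3, the difference was positive, toward a smaller fall, for MSRB4 (1.54), HSP17.6II (3.30), PP2CA (0.75), AT5G18450 (0.61), SULTR1;2 (1.32) and APR1 (1.37). It was negative, toward a larger fall, for CYP71B37 (-1.68), PYL12 (-1.13), PAP85 (-0.52), AT3G18570 (-0.43), OLEO4 (-1.10), HSP17.4 (-0.48), MLS (-0.51), GEA6 (-0.64), AT1G75490 (-1.14), AT2G16890 (-1.25), BGLU19 (-0.54), ATS1 (-0.72) and AT1G72100 (-0.43).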

How the results depend on the processing

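The 311 genes called in brm-3 against Col-0 became 62 when at least 10 counts were asked of every library, a filter that only 64 of the 311 passed and under which 61 of those 64 were called. Testing for a change beyond 1 on the log2 scale left 36, and dropping the fold limit gave 1050. Other settings gave between 220 (only these 8 libraries) and 391 (no filter on low counts), with 258 in DESeq2, 304 without organelle genes (added after the data were seen) and 287 to 330 with 1 library left out. For brm-3dog1-4 against dog1-4, 779 genes became 1240 with no filter and 208 with at least 10 counts, and 702 to 950 with 1 library left out. The difference of the brm-3 effect between DOG1 backgrounds was called for 901 genes, and for 649 to 1097 with 1 library left out. Increased genes were also increased in the dog1-4 background at between 38.1% and 51.0%, and decreased genes at between 43.2% and 58.3%. The added number of genes detected in brm-3 was 549.75, and 380.25 at equal depth, and neither passed. Replicate numbers in the labels did not pair the samples. Deviations of same-numbered Col-0 and brm-3 libraries correlated between -0.03 and 0.07, and brm-3 libraries correlated best with their own number in 1 of 4 cases. With the replicate block 324 genes were called in brm-3 against Col-0, 746 in the dog1-4 background and 966 for the difference.

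Of 97 genes that passed and are named in the text, 7 lost the call when 1 library was left out. Under another setting 2, ATI1 and APS2, lost it, and 0 changed direction. The filter of at least 10 counts in every library left genes such as ZPR3 and BRD2 untested, and these did not count as lost. The test for a change beyond 1 on the log2 scale was not counted as a setting here. Genes picked by the rule but not named in the text are outside this count. Several of them lost the call in 7 of the 8 fits with 1 library left out, so the share does not hold for all genes picked. Low counts also limit the calls, since 174 of the 212 increased genes had under 10 CPM in Col-0. In the Col-0 libraries 3 counts corresponded to between 1.51 and 2.44 CPM.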
